A study of Homo sapiens with 6 samples.

Results

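The genes described here are 39 genes of the NRF2 and glutathione antioxidant system taken by symbol from the 46427 genes of a raw count table. The rule for membership used the symbol alone, but the list was drawn up with earlier results of these data known. RNA-seq was performed in Hs578T, a triple-negative breast cancer cell line with a mesenchymal phenotype. There were 3 libraries of cells transduced with a control shRNA (shCTRL) and 3 libraries of cells transduced with CCN3 shRNA #2 (shCCN3). Both lines carried the pSUPER-retro-puro retroviral vector, were selected with puromycin and were grown in DMEM with fetal bovine serum. CCN3 is a secreted matricellular protein, and the comparison asked which mRNAs changed upon CCN3 knockdown. Only 1 CCN3 shRNA was sequenced, so effects of CCN3 loss, of other targets of that shRNA and of differences between the derived lines cannot be told apart. The methods speak of clones without saying whether each line was 1 clone.

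NRF2, the product of NFE2L2, is a transcription factor that KEAP1 marks for degradation in unstressed cells. Oxidants and electrophiles modify KEAP1, and NRF2 then accumulates, pairs with small MAF proteins and binds antioxidant response elements. Its targets make and recycle glutathione, supply NADPH, reduce quinones and carbonyls, and remove peroxides. Because NRF2 is controlled mainly through protein stability, its mRNA is not a readout of its activity. The RNA-seq measured neither protein, NRF2 activity nor glutathione.

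The libraries held between 56159110 and 68393177 counts. CCN3 mRNA, in counts per library total after TMM scaling (CPM), had a mean of 101 ± 2.43 in control cells and of 47.0 ± 0.469 in knockdown cells (SD, n = 3 each), so it was lowered and not abolished. The cell identity of Hs578T was seen in both groups, with VIM at 7775 and 7062 CPM in shCTRL and shCCN3 cells and EPCAM at no more than 0.0447 CPM in any library. CDH1, ESRP1 and GRHL2, which mark epithelial cells, reached at most 0.141 CPM. The keratins of simple epithelia, which are on the same marker list, were expressed. KRT8 was lower, with means of 19.99 and 13.9 CPM in control and knockdown cells (log2 fold change -0.52, edgeR adjusted p = 0.00221), and KRT18 was higher, with means of 163 and 231 CPM (0.51, edgeR adjusted p = 0.00172). Their part in the results below was not tested. Of the receptors that define the triple-negative class by protein, ESR1 was at or near 0, PGR was at 2.86 and 3.80 CPM, and ERBB2 mRNA was present at 77.9 and 78.2 CPM. Of 17419 genes that passed the filter on low counts, 2814 (16.2%) were higher and 3011 (17.3%) were lower in shCCN3 cells at an adjusted p under 0.05. The calls are those of the quasi-likelihood test in edgeR, with p-values adjusted by Benjamini-Hochberg across all genes tested. The median log2 fold change of all tested genes was 0.01, and its median size was 0.24.

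The library of shCCN3 replicate 2 stood apart from the others. It differed from the other shCCN3 libraries with chi-square values of 34.7 and 42.5 per degree of freedom, against 9.28 between those libraries and 6.75 to 20.7 among the shCTRL libraries. Genes with transcripts up to 1.94 kb had a median log2 deviation of 0.15 in this library from the mean of the other shCCN3 libraries. Genes with transcripts over 3.36 kb had one of -0.16. Of the 36 antioxidant genes tested, it gave the highest shCCN3 value for 26, with a median transcript length of 1.41 kb, and the lowest for 6, with a median length of 3.68 kb. Among the control libraries, shCTRL replicate 3 deviated in the same direction, by 0.08 for the shorter and -0.09 for the longer transcripts. It gave the highest shCTRL value for 24 of the 36 genes and the lowest for 11. The fit without shCCN3 replicate 2 kept that control library. The part of transcript length in the results was not tested. The values of genes whose call changed without shCCN3 replicate 2 are given with those genes.

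Of the 39 genes, 36 passed the filter on low counts. GPX2 and GPX3, which encode the gastrointestinal and the plasma glutathione peroxidase, had 0 counts in every library, and SOD3, the extracellular superoxide dismutase, had 3 counts in 1 shCCN3 library and 0 in the others. In these libraries 3 counts correspond to 0.0435 to 0.054 CPM, which is the limit that a count of 0 allows and covers counting error only. The antioxidant genes did not move in a single direction upon CCN3 knockdown. Among the 36, 8 were higher (22.2%, against 16.2% of all genes), 7 were lower (19.4%, against 17.3%) and 21 did not pass the test. Their median log2 fold change was 0.00, with a range from -0.83 to 1.502, and the median size was 0.22, close to that of all genes. The groups did not overlap for 19 of the 36 (52.8%), against 46.3% of all genes tested. By the stricter rule of at least 1.5-fold, an adjusted p under 0.05 and no overlap, AKR1C1, AKR1C2 and SOD2 were higher and GSR was lower. Of all genes, 7.93% met that rule in the higher direction and 7.93% in the lower direction. In bulk RNA, a change in the share of cells that express a gene and a change in the RNA per cell cannot be told apart.

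Without shCCN3 replicate 2, 9 antioxidant genes were higher and 15 were lower, where 20.0% and 20.5% of 17837 genes were called. All 15 earlier calls remained. TXNRD1 was added to the higher genes, and KEAP1, NQO1, OSGIN1, TXN, AKR1B1, GPX1, PRDX2 and PRDX6 to the lower genes. The balance between higher and lower genes therefore depended on this library, while 8 genes were called in the same direction in each of 13 alternative analyses. These were AKR1C1, AKR1C2, AKR1C3, SOD2 and GCLC among the higher genes, and GSR, HMOX1 and SRXN1 among the lower ones. Subtraction of chromosome medians, described below, is not among the 13, and it left GCLC with a log2 fold change of 0.003.

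**Figure D1:**
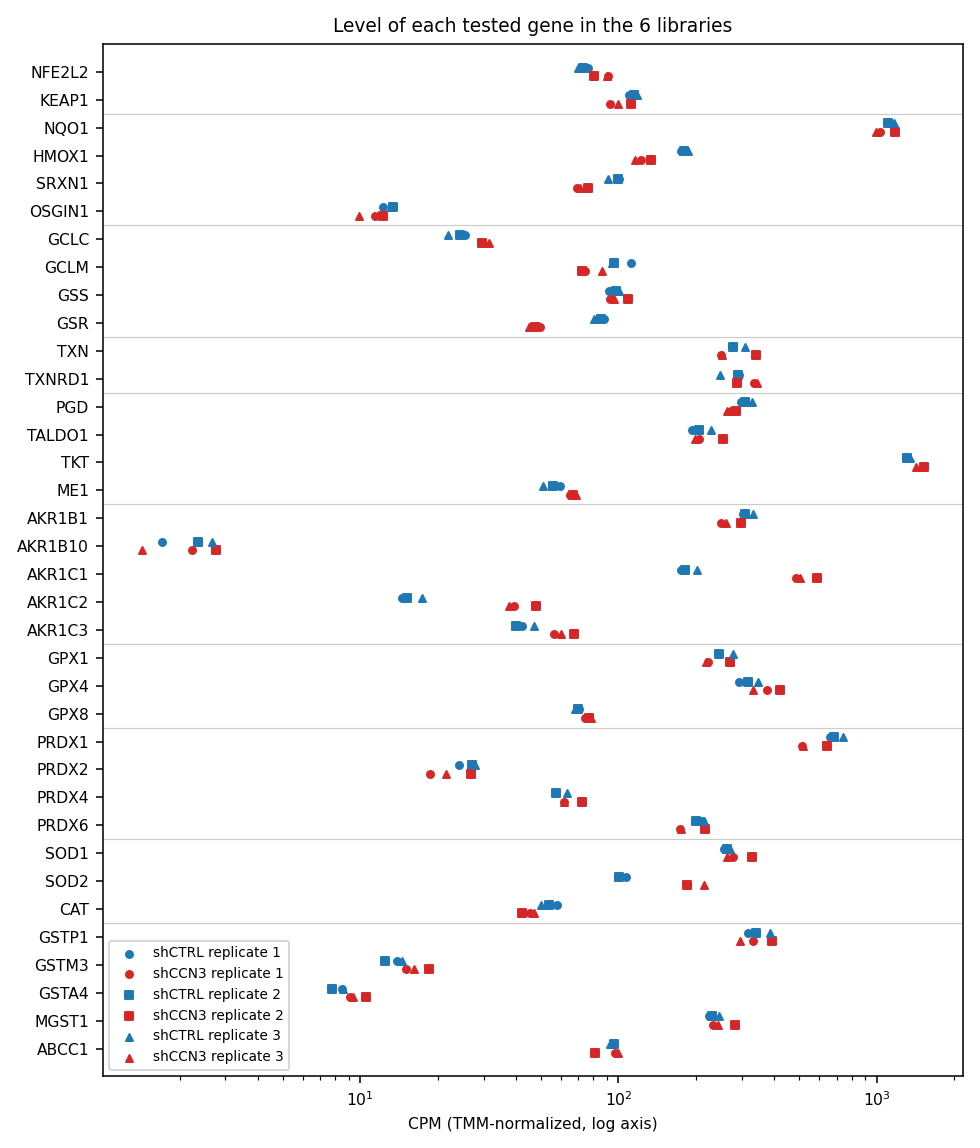
Level of each of the 36 tested antioxidant genes in the 6 libraries (x axis, TMM-normalized CPM, log scale), ordered by role, with blue for shCTRL, red for shCCN3 and a marker shape for each replicate. The groups separate most clearly for AKR1C1, AKR1C2, SOD2 and GSR.

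The 36 genes differed widely in level. Per kb of the median annotated transcript length, NQO1 had the highest mean among the 36 genes in shCCN3 cells at 1056 CPM per kb, followed by TKT at 606 and PRDX1 at 547. In shCTRL cells PRDX1 stood at 681 CPM per kb and TKT at 538. AKR1B10, the lowest, was at 1.40 CPM per kb in shCTRL cells and 1.34 in shCCN3 cells. Differences between neighbours in this order were not tested, and the lengths of the isoforms used by these cells are not known.

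Of the regulators, NFE2L2 was higher and KEAP1 did not pass the test. NFE2L2 was at 76.2, 72.8 and 69.7 CPM in shCTRL replicates 1 to 3 and at 90.9, 80.4 and 90.7 CPM in shCCN3 replicates 1 to 3. Every shCCN3 library lay above every shCTRL library, with replicate 2 the lowest of its group. The log2 fold change was 0.26 (standard error 0.069, edgeR adjusted p = 0.0177), a 1.20-fold increase. The call was lost in each of 4 fits that left out shCTRL replicate 2 or 3 or shCCN3 replicate 1 or 3, with edgeR adjusted p between 0.0634 and 0.0766. KEAP1, the adaptor that brings NRF2 to its ubiquitin ligase, was at 109.8, 115 and 118 CPM in shCTRL cells and at 93.0, 111 and 99.8 CPM in shCCN3 cells. These values overlapped through shCCN3 replicate 2, and the log2 fold change was -0.17 (standard error 0.075, edgeR adjusted p = 0.108). Without that library it was -0.24 (edgeR adjusted p = 0.00697).

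Of the 4 genes placed in the role of classic NRF2 targets, none was higher, and HMOX1 and SRXN1 were lower. This role was assigned with earlier results known, and no difference from the 16.2% and 17.3% of all genes was tested. The NRF2 target functions named above also cover genes placed in other roles, which moved in both directions. Of these, AKR1C1, AKR1C2, AKR1C3, GCLC, TKT and ME1 were higher, and GCLM, GSR, PGD, PRDX1 and CAT were lower. HMOX1 encodes heme oxygenase 1, which opens heme to biliverdin, carbon monoxide and iron. HMOX1 mRNA was at 175, 180.1 and 186 CPM in shCTRL cells and at 122, 134 and 116 CPM in shCCN3 cells, with no overlap. The log2 fold change was -0.54 (standard error 0.067, edgeR adjusted p = 0.00026), and it stayed between -0.60 and -0.50 over the 13 alternatives. SRXN1 encodes sulfiredoxin, which restores overoxidized peroxiredoxins. It was at 100.1, 99.7 and 90.7 CPM in shCTRL cells and at 68.995, 76.0 and 71.2 CPM in shCCN3 cells, again with no overlap. The log2 fold change was -0.43 (standard error 0.067, edgeR adjusted p = 0.00106). On chromosome 20, the median log2 fold change of the 24 tested genes nearest to SRXN1 was -0.52, so its neighbours were lower as well. Whether a shift of that region had a part in the change of SRXN1 was not tested.

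NQO1, the quinone reductase that is often used as an NRF2 reporter gene, was among the most abundant of these mRNAs. It was at 1101, 1104 and 1169 CPM in shCTRL cells and at 1035, 1181 and 999 CPM in shCCN3 cells. The highest and the lowest value both belonged to shCCN3 cells, and the log2 fold change was -0.07 (standard error 0.071, edgeR adjusted p = 0.497). Without shCCN3 replicate 2 it was -0.14 (edgeR adjusted p = 0.0407). OSGIN1, a growth inhibitor induced by oxidative stress, was at 12.2 to 13.4 CPM in shCTRL cells and at 9.89 to 12.3 CPM in shCCN3 cells, and its log2 fold change of -0.21 did not pass the test. Without shCCN3 replicate 2 it was -0.28 (edgeR adjusted p = 0.0383).

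Glutathione is made in 2 steps, and the subunits of the first enzyme moved in opposite directions. GCLC encodes the catalytic subunit of glutamate-cysteine ligase, and GCLM encodes its modifier subunit. GCLC was at 25.4, 24.4 and 21.8 CPM in shCTRL cells and at 29.8, 29.5 and 31.5 CPM in shCCN3 cells. All shCCN3 values lay above the shCTRL values, and the log2 fold change was 0.34 (standard error 0.077, edgeR adjusted p = 0.00803). GCLM was at 112, 95.8 and 94.6 CPM in shCTRL cells and at 74.3, 71.9 and 86.4 CPM in shCCN3 cells. All shCCN3 values lay below the shCTRL values, and the log2 fold change was -0.38 (standard error 0.091, edgeR adjusted p = 0.0113), and without shCCN3 replicate 1 the adjusted p was 0.0502. The ratio of GCLM to GCLC counts was 4.39, 3.93 and 4.34 in the shCTRL libraries and 2.50, 2.44 and 2.74 in the shCCN3 libraries. Its mean was 4.22 ± 0.254 (SD, n = 3) and 2.56 ± 0.161 (SD, n = 3), and the exact permutation test gave p = 0.1 (two-sided), the smallest value that 3 libraries against 3 allow. The mRNA ratio is not a ratio of proteins, since the genes differ in transcript length and translation. GCLC lies on chromosome 6, where the tested genes had a median of 0.34, and the 24 nearest to it had one of 0.39. For GCLM, on chromosome 1, these medians were -0.13 and 0.02. Their part in the ratio was not tested.

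GSS, glutathione synthetase, catalyzes the second step. It was at 91.9 to 100.7 CPM in shCTRL cells and at 92.6 to 109 CPM in shCCN3 cells, and its log2 fold change of 0.03 did not pass the test (edgeR adjusted p = 0.784). GSR encodes glutathione reductase, which returns oxidized glutathione to its reduced form with NADPH, and it had the largest decrease among the 36 genes. GSR was at 87.8, 85.7 and 80.1 CPM in shCTRL cells and at 49.5, 47.6 and 45.1 CPM in shCCN3 cells. The shCCN3 libraries lay within 5 CPM of one another and far below the shCTRL libraries. The mean fell from 84.5 ± 3.97 to 47.4 ± 2.198 CPM (SD, n = 3 each). The log2 fold change was -0.83 (standard error 0.065, edgeR adjusted p = 1.67e-05) and ranged from -0.87 to -0.80 over the 13 alternatives. GSR lies on chromosome 8 (GRCh38, 30678066 to 30727846), where the median over the tested genes was 0.11. The 24 tested genes nearest to GSR had a median of -0.27.

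The largest increases were in the aldo-keto reductases of the AKR1C cluster on chromosome 10. These cytosolic enzymes reduce carbonyls and ketosteroids with NADPH, and AKR1C1 inactivates progesterone while AKR1C3 makes androgens and prostaglandin F. AKR1C1 (GRCh38, chromosome 10, 4963415 to 4983283) was at 175, 181 and 202 CPM in shCTRL cells and at 487, 589 and 504 CPM in shCCN3 cells. Every shCCN3 library held more than 2 times the highest shCTRL value. The mean rose from 186 ± 13.97 to 527 ± 54.4 CPM (SD, n = 3 each), a 2.83-fold increase, or 1.502 on the log2 scale (standard error 0.088, edgeR adjusted p = 3.07e-06). AKR1C2 (4987775 to 5018000) was at 14.5, 15.1 and 17.3 CPM in shCTRL cells and at 39.2, 47.8 and 37.7 CPM in shCCN3 cells, an increase of 1.41 on the log2 scale (standard error 0.109, edgeR adjusted p = 1.56e-05). AKR1C3 (5048781 to 5107686) was at 42.1, 40.0 and 47.2 CPM in shCTRL cells and at 56.4, 67.5 and 59.8 CPM in shCCN3 cells. It also showed no overlap, with a smaller log2 fold change of 0.51 (standard error 0.088, edgeR adjusted p = 0.00204). AKR1C4, the liver-type member, had 0 counts in every library.

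The AKR1C genes are close paralogs, and the division of reads among them is uncertain. Of all stretches of 100 bases in annotated AKR1C2 transcripts, 26.4% occurred also in AKR1C1 transcripts, and 16.3% of those of AKR1C1 occurred in AKR1C2. AKR1C3 shared 0.904% of its stretches with AKR1C1 and 3.43% with AKR1C2. The ratio of AKR1C2 to AKR1C1 counts was 0.0828, 0.0834 and 0.086 in the shCTRL libraries and 0.0806, 0.0812 and 0.0747 in the shCCN3 libraries. It was thus nearly constant while both genes rose, and whether part of the AKR1C2 counts came from AKR1C1 mRNA was not tested. The ratio of AKR1C3 to AKR1C1 was 0.221 to 0.241 in shCTRL cells and 0.115 to 0.118 in shCCN3 cells. Summed over AKR1C1, AKR1C2 and AKR1C3, the level rose from 245 ± 18.8 to 629 ± 65.3 CPM (SD, n = 3 each), a 2.57-fold difference. A read given to the wrong gene of the cluster leaves this sum as it is. Shared reads that were dropped or counted more than once would alter it, and the counting settings are not known.

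The RefSeq promoter windows of these genes, from 250 bases before to 50 bases after the annotated start on GRCh38, are shown because they display how alike the neighbouring genes are. A single annotated start was used per gene, and that of AKR1C2 lies inside the gene span given above. Sequences are written 5′ to 3′ in the sense of the gene. Capitals mark bases without an identical partner in a global alignment, to AKR1C2 in the first line and to AKR1C1 in the other lines.
AKR1C1 (chr10:4963165-4963464, plus strand): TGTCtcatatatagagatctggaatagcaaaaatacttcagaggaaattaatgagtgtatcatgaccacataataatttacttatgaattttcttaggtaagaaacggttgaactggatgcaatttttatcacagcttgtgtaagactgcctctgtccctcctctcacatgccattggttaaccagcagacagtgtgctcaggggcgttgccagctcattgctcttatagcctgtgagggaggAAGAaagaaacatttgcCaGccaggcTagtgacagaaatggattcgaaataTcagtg
AKR1C2 (chr10:5003808-5004107, minus strand): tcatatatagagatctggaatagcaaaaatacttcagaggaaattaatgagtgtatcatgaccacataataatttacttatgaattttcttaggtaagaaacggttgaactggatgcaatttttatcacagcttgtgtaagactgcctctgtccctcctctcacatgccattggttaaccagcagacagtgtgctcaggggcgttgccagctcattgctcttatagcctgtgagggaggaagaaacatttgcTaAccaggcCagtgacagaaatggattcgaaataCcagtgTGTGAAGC
AKR1C3 (chr10:5048531-5048830, plus strand): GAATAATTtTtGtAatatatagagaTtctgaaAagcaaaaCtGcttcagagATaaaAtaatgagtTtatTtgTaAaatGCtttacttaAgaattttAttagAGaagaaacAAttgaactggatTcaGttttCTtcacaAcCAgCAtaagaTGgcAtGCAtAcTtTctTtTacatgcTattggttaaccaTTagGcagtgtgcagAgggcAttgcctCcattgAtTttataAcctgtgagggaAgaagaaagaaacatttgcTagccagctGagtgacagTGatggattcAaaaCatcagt
The AKR1C1 and AKR1C2 windows were identical at 93.5% of the alignment columns, AKR1C1 and AKR1C3 at 74.7%, and AKR1C2 and AKR1C3 at 70.2%. AKR1C1 and AKR1C2, with the more alike windows, were the pair with the larger increases. These windows lie on opposite strands for AKR1C1 and AKR1C2. Nothing about binding of a factor was measured.

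The AKR1B members differed from the AKR1C members. AKR1B1, aldose reductase, was at 305, 309 and 331 CPM in shCTRL cells and at 248.8, 299 and 261 CPM in shCCN3 cells. These values did not overlap, but the log2 fold change of -0.22 had an edgeR adjusted p of 0.0503. Without shCCN3 replicate 2 it was -0.30 (edgeR adjusted p = 0.00157). AKR1B10, a retinal reductase and widely used NRF2 marker in lung cancer, was near the low end with 1.70 to 2.65 CPM in shCTRL cells and 1.42 to 2.75 CPM in shCCN3 cells, and it did not pass the test. Both lie on chromosome 7, where the tested genes had a median of -0.43 on the log2 scale. Relative to that median, the log2 fold change of AKR1B1 was 0.20 and that of AKR1B10 was 0.36. The part of the chromosome in these values was not tested.

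Among the thioredoxin genes, neither passed the test. TXNRD1, thioredoxin reductase 1, was at 293, 291 and 248 CPM in shCTRL cells and at 336, 287 and 344 CPM in shCCN3 cells. shCCN3 replicate 2 lay within the shCTRL range while the other shCCN3 libraries lay above it, and the log2 fold change was 0.22 (standard error 0.090, edgeR adjusted p = 0.094). Without that library it was 0.30 (edgeR adjusted p = 0.00787). TXN, which encodes thioredoxin, was at 274 to 308 CPM in shCTRL cells and at 250.4, 342 and 253 CPM in shCCN3 cells. Only shCCN3 replicate 2 lay above the shCTRL range, and the log2 fold change was -0.02 over all libraries and -0.18 without it (edgeR adjusted p = 0.0347).

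The genes that supply NADPH were split. TKT, transketolase, was higher with means of 1319.5 and 1487 CPM in shCTRL and shCCN3 cells (log2 fold change 0.17), and ME1, the cytosolic malic enzyme, was higher with means of 55.3 and 66.8 CPM (0.27). PGD, the second NADPH-producing enzyme of the pentose phosphate pathway, was lower with means of 312 and 273 CPM (-0.19). TALDO1, transaldolase, did not pass the test at 192 to 228 CPM in shCTRL cells and 198 to 254 CPM in shCCN3 cells. The calls in this group were small and fragile. TKT lost its call in 6 of 13 alternatives, PGD also in 6 and ME1 in 3.

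SOD2 stood apart from the other enzymes that act on superoxide and hydrogen peroxide. SOD2, the manganese superoxide dismutase of mitochondria, was at 107, 101 and 99.8 CPM in shCTRL cells and at 184, 184 and 215 CPM in shCCN3 cells. The lowest shCCN3 library was well above the highest shCTRL library, and the mean rose from 102 ± 3.79 to 194 ± 17.9 CPM (SD, n = 3 each). The log2 fold change was 0.92 (standard error 0.075, edgeR adjusted p = 2.11e-05). SOD1, the cytosolic enzyme, was at 256 to 271 CPM in shCTRL cells and at 262 to 328 CPM in shCCN3 cells and did not pass the test. CAT, catalase, was lower with means of 53.9 and 44.9 CPM in shCTRL and shCCN3 cells (log2 fold change -0.26, edgeR adjusted p = 0.0232), and it lost the call in 4 of 13 alternatives.

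Of 4 peroxiredoxins, which reduce peroxides through a reactive cysteine, PRDX1 was lower. It was at 661, 687 and 740 CPM in shCTRL cells and at 514, 643 and 518 CPM in shCCN3 cells, without overlap (log2 fold change -0.32, edgeR adjusted p = 0.0256). Leaving out shCTRL replicate 2 or 3 or shCCN3 replicate 1 or 3 ended that call. PRDX2, PRDX4 and PRDX6 had log2 fold changes of -0.24, 0.14 and -0.15 and did not pass. Without shCCN3 replicate 2, PRDX2 was at -0.39 (edgeR adjusted p = 0.00584) and PRDX6 at -0.26 (edgeR adjusted p = 0.00296). None of the 3 tested glutathione peroxidases passed. GPX1 had a log2 fold change of -0.11, and of -0.21 without shCCN3 replicate 2 (edgeR adjusted p = 0.0221). GPX4, the enzyme that reduces lipid hydroperoxides and opposes ferroptosis, had a log2 fold change of 0.24, and GPX8, an enzyme of the endoplasmic reticulum, had 0.14. GPX4 was at 293, 318 and 349 CPM in shCTRL cells and at 377, 421 and 333 CPM in shCCN3 cells, so that its groups overlapped through shCCN3 replicate 3. Without that library the log2 fold change was 0.32 (edgeR adjusted p = 0.0287).

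The transferases and the exporter of glutathione conjugates gave no call. GSTP1 was at 318 to 387 CPM in shCTRL cells and at 295 to 392 CPM in shCCN3 cells, with a log2 fold change of -0.04. MGST1, a membrane-bound transferase, had 0.11 and ABCC1, which pumps glutathione conjugates out of the cell, had -0.04. GSTM3 was at 12.5 to 14.5 CPM in control and 15.1 to 18.4 CPM in knockdown libraries, and GSTA4 at 7.77 to 8.54 and 9.15 to 10.5 CPM. Their groups did not overlap, but with edgeR adjusted p values of 0.0566 and 0.0948 neither was called.

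**Figure D2:**
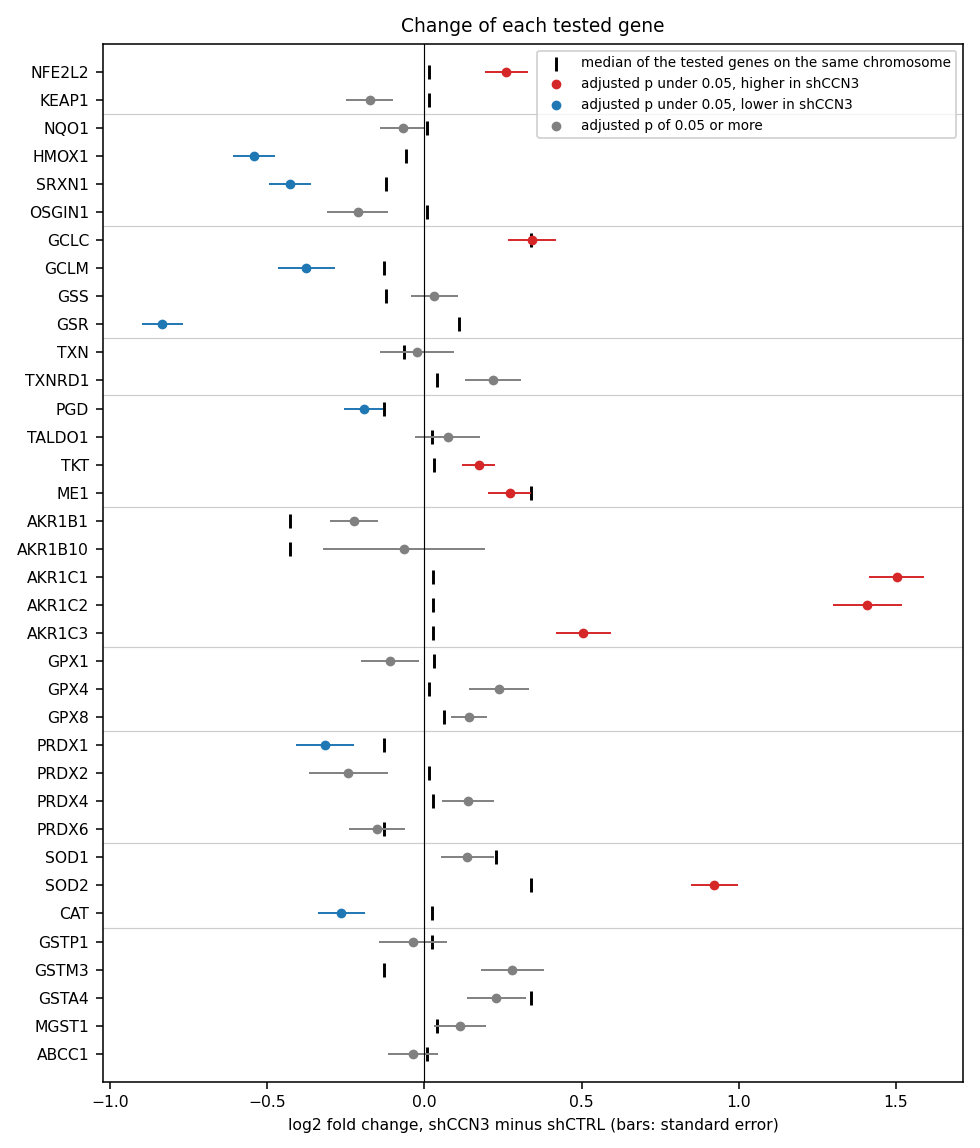
Log2 fold change of the 36 tested antioxidant genes in shCCN3 against shCTRL cells (x axis, points with standard error), ordered by role, with red and blue for genes called higher and lower by edgeR at an adjusted p under 0.05 and gray for the others. Black ticks give the median log2 fold change of all tested genes on the same chromosome, and they lie close to the points of GCLC and ME1.

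Some of the called genes lie on chromosomes whose genes were called more often in the same direction than in the other. On chromosome 6, 46.2% of 891 tested genes were higher and 5.61% were lower, with a median log2 fold change of 0.34, against 16.2% and 17.3% of all genes. GCLC, ME1, SOD2 and GSTA4 lie there, and the first 3 of them were called higher. Relative to the chromosome median, the log2 fold change of GCLC was 0.00 and that of ME1 was -0.07, while that of SOD2 was 0.58. The 24 tested genes nearest to GCLC and to SOD2 both had a median of 0.39. Chromosome 1, with 10.0% of 1737 genes higher and 29.1% lower and a median of -0.13, holds GCLM, PGD and PRDX1, which were lower, as well as PRDX6 and GSTM3. The 24 tested genes nearest to PRDX1 had a median of -0.33 and those nearest to PGD one of -0.37, whereas those nearest to GCLM had one of 0.02. The genes around AKR1C1 had a median of 0.22, its own paralogs among them. AKR1C1 and HMOX1 lie on chromosomes with medians of 0.03 and -0.06. Whether gains or losses of chromosome segments between the lines had a part in these differences was not tested.

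Antioxidant response elements were searched as TGACNNNGC on both strands of the RefSeq promoter windows, which 31 of the 39 genes have. The motif was present in the windows of 7 of these 31 genes (22.6%), against 13.6% of all 27305 windows and 15.0% of those of tested genes. Among genes called higher it was in 1 of 8 windows, among genes called lower in 2 of 4, and among genes not called in 3 of 16. Of the genes called lower, GSR, HMOX1 and PRDX1 have no window, so these counts leave them out. The elements of the members that were measured are shown with 10 or more flanking bases on each side, in the sense of the gene, and capitals mark the motif or its reverse complement.
GCLM (chr1:93909445-93909474, minus strand): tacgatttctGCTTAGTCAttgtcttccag
PGD (chr1:10398853-10398882, plus strand): cctcgccgggGCAATGTCAtctaggtgctc
ME1 (chr6:83431169-83431198, minus strand): tctcctgccaTGACTCAGCgcttctcgcag
ME1 (chr6:83431021-83431050, minus strand): gctgcagtcaGCACCGTCAccccagcagca
TXNRD1 (chr12:104215670-104215699, plus strand): acacgggctaTGACTTCGCtgttgtcaccg
TXNRD1 (chr12:104215761-104215790, plus strand): gcgtccttcgGCTCCGTCAgttcccacagg
GSTP1 (chr11:67583736-67583765, plus strand): gccggcgccgTGACTCAGCactggggcgga
GSTA4 (chr6:52995274-52995303, minus strand): ccgggaccgcTGACCTGGCgctttgtgcgg
GCLM and PGD were lower, ME1 was higher, and TXNRD1, GSTP1 and GSTA4 did not pass the test, so that genes with the motif in this window moved in either direction. The site of GPX2, whose mRNA had 0 counts, is left out. The first ME1 site and the GSTP1 site also contain TGACTCA, the binding motif of AP-1. The windows of AKR1C1, AKR1C2, AKR1C3, NFE2L2 and NQO1 hold no match within these 300 bases. A single annotated start was used per gene, and other starts and enhancers farther away were not searched. A match is a description of the sequence only.

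Other genes of the pathway were taken from a list of 86 NRF2 partners, targets and redox enzymes, of which 85 were in the table and 81 were tested. Of these, 19 (23.5%, against 16.2% of all genes) were higher, 22 (27.2%, against 17.3%) were lower and 40 did not pass, with a median log2 fold change of -0.03. Like the 39 genes above, they moved in both directions. GSTT1 was not analysed here. The group for cystine uptake, glutathione supply and breakdown had 5 genes higher (50%) and 2 lower (20%) among 10 tested, and its median log2 fold change was 0.34. The group of other NRF2 targets had 2 higher (13.3%) and 5 lower (33.3%) among 15 tested, with a median of -0.21. Among other peroxidases, sestrins and methionine sulfoxide reductases, 3 were higher (27.3%) and 5 lower (45.5%) of 11. With 10 to 15 genes a group, these shares are to be read against the 16.2% and 17.3% of all genes, and no difference from them was tested.

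SLC3A2, the heavy chain that carries the cystine transporter to the membrane, was at 157, 170.2 and 179.9 CPM in shCTRL cells and at 383, 452 and 388 CPM in shCCN3 cells. All shCCN3 libraries held more than 2 times the highest shCTRL value, and the log2 fold change was 1.27 (standard error 0.082, edgeR adjusted p = 5.58e-06). CHAC1, which degrades glutathione inside the cell and is induced in the integrated stress response, was at 6.11, 6.84 and 7.45 CPM in shCTRL cells and at 28.0, 32.0 and 24.7 CPM in shCCN3 cells. It rose 4.15-fold, a log2 fold change of 2.05 (standard error 0.117, edgeR adjusted p = 2.65e-06). OPLAH, 5-oxoprolinase, which returns glutamate from the glutathione cycle, had means of 7.02 ± 0.584 and 14.4 ± 0.702 CPM (SD, n = 3 each) and a log2 fold change of 1.04 (edgeR adjusted p = 3.82e-05). GPX7, a peroxidase of the endoplasmic reticulum, fell from 4.48 ± 0.203 to 1.24 ± 0.292 CPM (SD, n = 3 each), with a log2 fold change of -1.85 (edgeR adjusted p = 6.28e-05).

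The 2 other genes past this threshold were at the low end of detection. GGT5, a gamma-glutamyltransferase, was at 0.131, 0.143 and 0.358 CPM in shCTRL cells and at 0.479, 0.738 and 0.813 CPM in shCCN3 cells, and the call (log2 fold change 1.67, edgeR adjusted p = 0.0153) was lost without shCTRL replicate 1 or 2 or shCCN3 replicate 3. UGT1A6 was at 0.480, 0.223 and 0 CPM in shCTRL cells and at 0.943, 2.16 and 0.594 CPM in shCCN3 cells (edgeR adjusted p = 0.0474). Its exons are shared with other UGT1A genes, and the call was lost under 7 of the alternatives, DESeq2 among them (adjusted p = 0.203).

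A few further genes were chosen after their values were seen, because they bear on the members above. SLC7A11, the cystine transporter light chain that partners SLC3A2, was at 75.2, 70.7 and 68.1 CPM in shCTRL cells and at 107, 98.8 and 118 CPM in shCCN3 cells (log2 fold change 0.60, edgeR adjusted p = 0.000355). FTH1, the ferritin heavy chain, which stores iron such as that released by HMOX1, fell from 15884 ± 1356 to 8845 ± 1127 CPM (SD, n = 3 each), or by -0.84 on the log2 scale (edgeR adjusted p = 0.000133). Of the small MAF partners of NRF2, MAFF rose from a mean of 25.6 to 39.3 CPM (log2 fold change 0.62). MAFG did not pass the test (-0.01, edgeR adjusted p = 0.894), and MAFK fell from 41.0 to 29.9 CPM (-0.46). MAFK lies on chromosome 7, where the tested genes had a median of -0.43, and the 24 nearest to it had one of -0.55. BACH1, a repressor that competes with NRF2 at HMOX1, was at 9.95 to 12.7 CPM in shCTRL cells and at 13.8 to 18.2 CPM in shCCN3 cells (log2 fold change 0.46, edgeR adjusted p = 0.0225). BACH1 lies on chromosome 21, where the tested genes had a median of 0.23, and the 24 nearest to it had one of 0.32. The part of these regions in the changes of MAFK and BACH1 was not tested.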

How the data were processed

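Per the labels and the paper's methods, total RNA of Hs578T shCTRL and shCCN3 cells was made into libraries with a stranded mRNA kit. The submitters' processing notes name bcl2fastq 2.20.0, Trimmomatic, HISAT2 2.1.0, StringTie 2.1.3d, DESeq2 and GRCh38. The counting settings, the annotation and the use of strand are not given in the sources used here. Values of paralogs and overlapping genes are therefore uncertain. The authors deposited raw read counts per gene, by NCBI Gene ID and symbol, without normalization. The design text calls the 3 samples of a group independent biological replicates, and groups were taken from the sample labels.

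From the counts, edgeR 4.0.16 (R 4.3.3) gave TMM-scaled CPM and fold changes on the log2 scale, using its filter by group, the quasi-likelihood test without a block, and Benjamini-Hochberg adjustment over 17419 genes. Standard errors are the log2 fold change divided by the root of the F statistic. The paper states no model for these counts. Scripts were tested on simulated counts, with pass criteria that were revised after the simulated results were seen. In those simulations DESeq2, used here as an alternative only, made more false calls than its nominal share. Total counts were 56159110 to 68393177 per library, and intervals at 0 cover counting error only.

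The 39 genes, the other gene lists, the roles and the rule for named genes were chosen with earlier results of these data known. Values per library are given for NFE2L2, KEAP1, NQO1, HMOX1, GCLC, GCLM, TXNRD1 and SRXN1, and for genes past an adjusted p of 0.05 with at least 1.5-fold change and no overlap, and pathway genes past 2-fold are named. Values of single libraries of other genes were added after they were seen. Positions and promoter windows are from RefSeq (GRCh38.p14), and transcript lengths from GENCODE release 29. The alternatives were DESeq2 size factors, upper-quartile normalization, no filter, a minimum of 10 counts in each library, DESeq2 1.42.0, limma-voom (limma 3.58.1), the replicate block and each library left out in turn. Subtraction of each chromosome's median was also computed.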

Additional observations from a re-analysis of the deposited data

How the results depend on the processing

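The counts of antioxidant genes called higher and lower were 8 and 7. With each library left out in turn they ranged from 5 to 9 higher and from 3 to 15 lower, and those of the other pathway genes from 12 to 20 higher and from 17 to 28 lower. The 15 came without shCCN3 replicate 2 and the 3 without shCCN3 replicate 1. Without shCTRL replicate 2, 5 were higher and 4 lower, with 12 of the other pathway genes higher, and without shCTRL replicate 3, 5 were higher. The other normalizations, filters and tools gave 7 to 9 higher and 6 to 8 lower. Deviations from the group mean correlated at 0.18, -0.10 and -0.35 between samples of the same replicate number. Effects of single libraries enter these values too, so they cannot show whether the replicate numbers pair the samples. A fit with the replicate block gave 7 higher and 5 lower, and 2331 higher and 2556 lower among all genes.

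Of the genes with a call, ME1 alone changed sign, and only after subtraction of its chromosome's median, where its log2 fold change was -0.0679. Among genes without a call, leaving out single libraries turned the sign of GSS (range -0.037 to 0.0786), TXN (-0.183 to 0.0544), TALDO1 (-0.0427 to 0.1458), AKR1B10 (-0.28 to 0.1585), GSTP1 (-0.1494 to 0.0561) and ABCC1 (-0.0929 to 0.0514). Subtraction of the chromosome median also turned the sign of genes without a call. These were TXN (0.0423 after it), AKR1B1 (0.2046), AKR1B10 (0.3638), SOD1 (-0.0914) and GSTA4 (-0.1106). Of the genes with a call, GCLC was then at 0.003, PGD at -0.0646, SRXN1 at -0.3058, SOD2 at 0.5836 and GSR at -0.9451. The cause of these changes was not tested.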
